A study of Mus musculus with 8 samples.

Results

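The 42 mitosis genes described here are the cyclins, kinases, kinesins and structural proteins with which a cell divides its chromosomes and then itself. They were chosen by gene symbol from a list, by a rule that uses no measured value but with earlier results of these data known. All 42 were found among the 55487 genes of each deposited table. Mitosis is started by Cdk1 bound to A- and B-type cyclins. Polo and Aurora kinases then build the spindle, a checkpoint holds anaphase until every chromosome is attached, and a ubiquitin ligase, the anaphase-promoting complex, ends mitosis by destroying the cyclins. The transcripts of these genes are made mainly in G2 and mitosis, so that in a mixture of cells their level is widely used as a measure of proliferation. Regulatory T cells (Tregs), CD4 T cells that express Foxp3 and restrain other immune cells, divide in the spleen and more so in inflamed tissue.

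The cells were splenic Tregs of C57BL/6 mice, sorted for green fluorescent protein (GFP) and sequenced from SMART-Seq v4 libraries, which amplify full-length cDNA from little RNA. The 8 libraries form 4 pairs: SRC-3KO and control Tregs of mice bearing a tumor, and SRC-3KO and control Tregs of mice without one. Ncoa3 is the gene of SRC-3, a coactivator of nuclear receptors, and the stated question was how Tregs without it differ in their transcripts. Both tumor controls and control replicate 2 without a tumor are named after a Foxp3 Cre line (FOXP3cre, FOxP3_Cre), in which Cre recombinase is made in Foxp3-expressing cells. Control replicate 1 without a tumor (the WT control below) is named WT instead, and GFP is missing from its source label. Both SRC-3KO libraries without a tumor, and no others, are named with Tam1, a word that the labels do not explain. If Tam1 is a treatment, it and the genotype cannot be told apart there. The sources used here do not give the deleted exons, the Cre of the SRC-3KO mice, the kind of tumor, the ages or the number of animals. Since nothing says that replicates came from separate animals, p-values measure only the spread between these libraries, which may be technical.

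The libraries without a tumor were deposited as raw read counts, shown here as CPM, counts scaled to a common library size, from totals of 27452922 and 31075452 in SRC-3KO and 25251597 and 24159217 in control. The tumor libraries were deposited as FPKM, which divides fragments by the length of the transcript and the size of the library, so their depth is unknown; the FPKM summed to 416186 and 408458 in SRC-3KO and 514349 and 463082 in control. No library is in both tables, and the states were not tested against each other. Foxp3 was detected in all 8 libraries, at 20.1 and 28.8 FPKM in SRC-3KO Tregs against 18.4 and 14.7 FPKM in control with a tumor. In the libraries without a tumor Foxp3 was at 21.2 and 9.33 CPM in SRC-3KO Tregs against 230.0 and 22.3 CPM in control. Ncoa3 itself stood at 47.5 and 27.7 FPKM in SRC-3KO Tregs against 37.7 and 45.4 FPKM in control with a tumor, and at 39.8 and 24.5 CPM in SRC-3KO Tregs against 131 and 58.7 CPM in control without one. These values do not check the labels, since transcripts of the exons that remain may be counted.

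Some libraries stood apart in genes other than the mitosis genes. Without a tumor, control replicate 1 was the lowest or the highest library in every listed T cell and Treg marker, in both directions. The T cell receptor components Cd3d and Cd3g were lowest there, at 97.8 and 57.6 CPM against at least 1122 and 962 CPM in the other 3 libraries, while Cd3e, Cd4 and Cd5 were highest. The T cell markers summed to 2654 CPM there and to between 3016 and 3717 CPM in the others. Of the Treg markers Il2ra, Ikzf2, Ctla4 and Tnfrsf18 were lowest and Foxp3 and Tigit highest there. Control replicate 2 without a tumor stood apart in neutrophil markers, which summed to 171 CPM, all from S100a8 and S100a9. The other 3 libraries without a tumor held at most 0.0396 CPM of that list. The replicates of a group differed, in the median gene, by 0.28 (log2) in SRC-3KO and by 1.43 in control. With a tumor, control replicate 2 held 3479 FPKM of summed neutrophil markers and 1275 FPKM of monocyte and macrophage markers. The other 3 tumor libraries held at most 4.18 and 0.907 FPKM of these lists. Values without 1 of these libraries are given beside the results that rest on it most.

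The promoters of mitosis genes share known elements, shown here as a feature that many of the 42 genes have in common beyond their role. The cell cycle genes homology region (CHR), with the letters TTTGAA, is bound by the MuvB complex, as DREAM in resting cells and with the activators B-Myb and FoxM1 in dividing cells. The CCAAT box is bound by the trimeric factor NF-Y. The RefSeq promoter table (build GRCm38.p6) matched 36 of the 42 genes, in 38 windows of 300 bases, from 250 before the transcription start to 50 after it. Incenp, Aurkb, Ccna2, Kif20a, Tpx2 and Stmn1 had no entry. Searched on both strands, TTTGAA was in 32 of the 38 windows, or 84.2%, against 17.9% of all 32851 windows. CCAAT was in 78.9% of the windows against 37.4%, and both elements together in 71.1% against 6.95%. The CHR lay near the start: 76.3% of the windows held TTTGAA from 40 bases before the start onwards, against 4.39% of all windows. The variant TTCGAA was in 7.89% of the windows against 1.56%. A match is a run of letters and does not show that a factor was bound.

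For some members, picked by hand, 149 bases are printed 5′ to 3′ on the gene's own strand, from 120 bases before the start to 29 after it. Capitals mark the CHR (TTTGAA, or TTCAAA when it lies on the other strand) and the CCAAT box (CCAAT or ATTGG). In Cdca8 a CHR and a CCAAT box share 1 base. Ube2c, Cdc20, Ccnb2, Cdca8, Kif22 and Cdca5 lay below both controls in SRC-3KO with a tumor and, apart from Cdca8, without one. Mki67 and Nusap1 are shown because their direction differed between the states, and the window of Nusap1 holds neither element. The direction of Ndc80, which is not shown, also differed.
Ube2c (chr2:164769809-164769957, plus strand): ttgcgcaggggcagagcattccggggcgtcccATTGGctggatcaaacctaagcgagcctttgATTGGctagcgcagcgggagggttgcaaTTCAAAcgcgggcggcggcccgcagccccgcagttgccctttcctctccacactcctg
Cdc20 (chr4:118437315-118437463, minus strand): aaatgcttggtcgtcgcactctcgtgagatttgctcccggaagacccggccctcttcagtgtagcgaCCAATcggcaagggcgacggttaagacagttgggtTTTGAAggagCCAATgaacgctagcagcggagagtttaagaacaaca
Ccnb2 (chr9:70421526-70421674, minus strand): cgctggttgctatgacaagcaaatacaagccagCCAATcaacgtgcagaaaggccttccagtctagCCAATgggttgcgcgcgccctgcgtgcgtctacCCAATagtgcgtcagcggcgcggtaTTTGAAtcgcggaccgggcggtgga
Cdca8 (chr4:124936889-124937037, minus strand): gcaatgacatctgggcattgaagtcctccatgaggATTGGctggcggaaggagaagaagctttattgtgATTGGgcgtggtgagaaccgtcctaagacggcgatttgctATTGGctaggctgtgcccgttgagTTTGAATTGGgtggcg
Kif22 (chr7:127042392-127042540, minus strand): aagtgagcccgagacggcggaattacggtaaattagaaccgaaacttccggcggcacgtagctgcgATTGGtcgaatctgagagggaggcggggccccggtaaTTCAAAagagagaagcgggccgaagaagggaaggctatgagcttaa
Cdca5 (chr19:6084977-6085125, plus strand): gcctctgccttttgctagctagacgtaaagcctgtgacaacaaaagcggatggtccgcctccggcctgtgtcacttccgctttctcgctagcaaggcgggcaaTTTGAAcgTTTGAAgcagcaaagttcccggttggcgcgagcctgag
Mki67 (chr7:135716351-135716499, minus strand): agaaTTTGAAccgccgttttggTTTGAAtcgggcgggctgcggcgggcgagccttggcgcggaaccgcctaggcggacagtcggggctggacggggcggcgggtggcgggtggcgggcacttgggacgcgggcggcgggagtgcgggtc
Nusap1 (chr2:119618178-119618326, plus strand): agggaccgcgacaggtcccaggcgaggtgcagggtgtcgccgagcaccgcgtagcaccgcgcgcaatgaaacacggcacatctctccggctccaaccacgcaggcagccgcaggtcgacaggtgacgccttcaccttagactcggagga

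**Figure D1:**
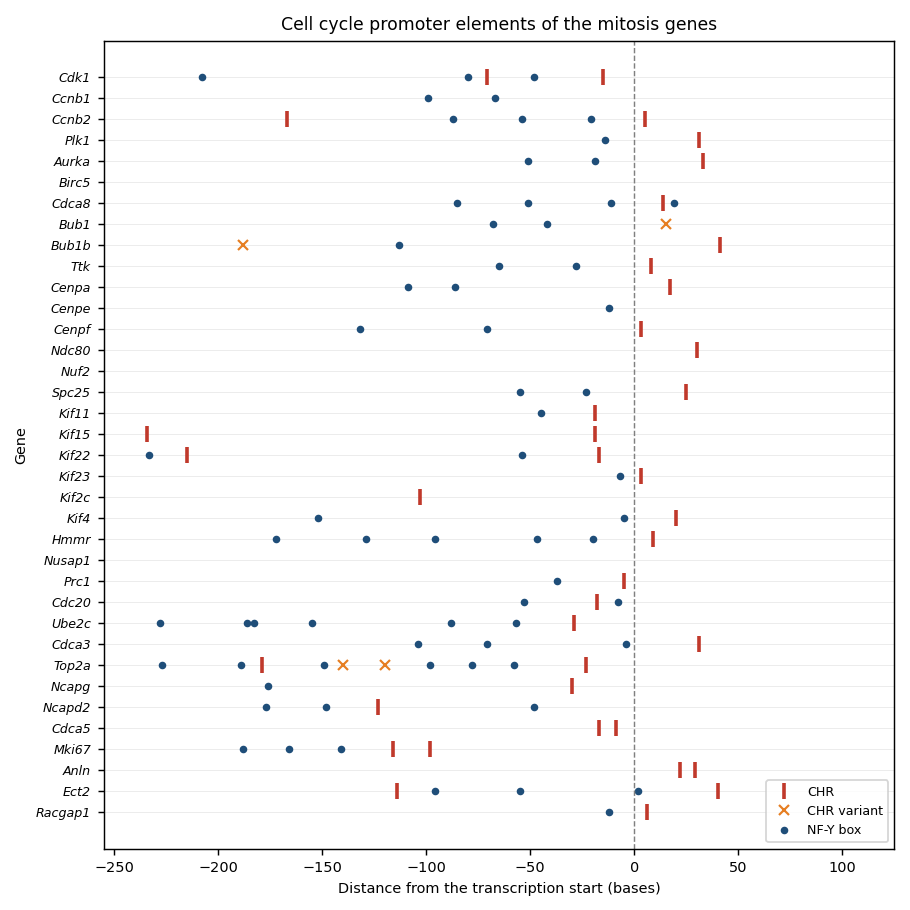
Positions of the CHR (TTTGAA, red bars), its variant TTCGAA (orange crosses) and the CCAAT or NF-Y box (blue dots), on either strand, in the promoter window of each of the 36 mitosis genes with a RefSeq entry. The x axis is the distance from the transcription start in bases; most red bars lie close to the start, and Birc5, Nuf2 and Nusap1 have no element.

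In the Tregs of tumor-bearing mice most mitosis genes lay lower in SRC-3KO, although none passed the test across all genes. Their FPKM summed to 97.4 and 90.7 in SRC-3KO Tregs against 229 and 192 in control. In 32 of the 42 genes both SRC-3KO libraries lay below both controls, and in 1, Mki67, above them. Among the 27033 genes above 0 in any tumor library, 16.9% lay below both controls. Of the 12859 genes of at least 1 FPKM in 2 libraries, a set that leaves out Mki67, 24.9% lay below both controls and 27.5% above them. With no filter on level, the median difference of mean log2(FPKM + 1) was -0.74 over the 42, against 0.0010 over those 27033 genes. At an unadjusted p under 0.05 (limma), 19 of the 42 were lower, where 3.59% of all genes were. In bulk RNA, fewer dividing cells, less of these transcripts per cell and a different share of other cells cannot be told apart. Markers of other cells differed between the groups, as given below.

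The planned test kept genes of at least 1 FPKM in 2 libraries, 32 of the 42, and 0 of them were called at a Benjamini-Hochberg adjusted p under 0.05. The smallest adjusted p of a member was 0.121 (limma on log2(FPKM + 1)), and 0.0933% of all 12859 genes tested were called lower. The filter itself favours a lower level in SRC-3KO, since 7 members (Plk1, Bub1, Kif11, Kif20a, Kif2c, Nusap1 and Cdca3) passed it only through the controls. At an unadjusted p under 0.05, 22 of the 32 were lower, all of these 7 among them, and 15 of the remaining 25. In that fit 6.07% of all genes were lower and 10.4% higher. The median log2 fold change of the 32 was -0.90, against -0.018 for all genes tested. Fold changes with a tumor are differences of mean log2(FPKM + 1), in which the added 1 draws differences at low FPKM toward 0. With 0.1 added instead, the median was -1.19, against -0.017 for all genes tested. The 10 members below the filter were Ttk, Cenpe, Cenpf, Nuf2, Kif4, Hmmr, Prc1, Ncapg, Mki67 and Anln. The replicates were close to each other in SRC-3KO, with a median difference of 0.12 (log2) between them over the 32 members, and further apart in control, at 0.48.

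**Figure D2:**
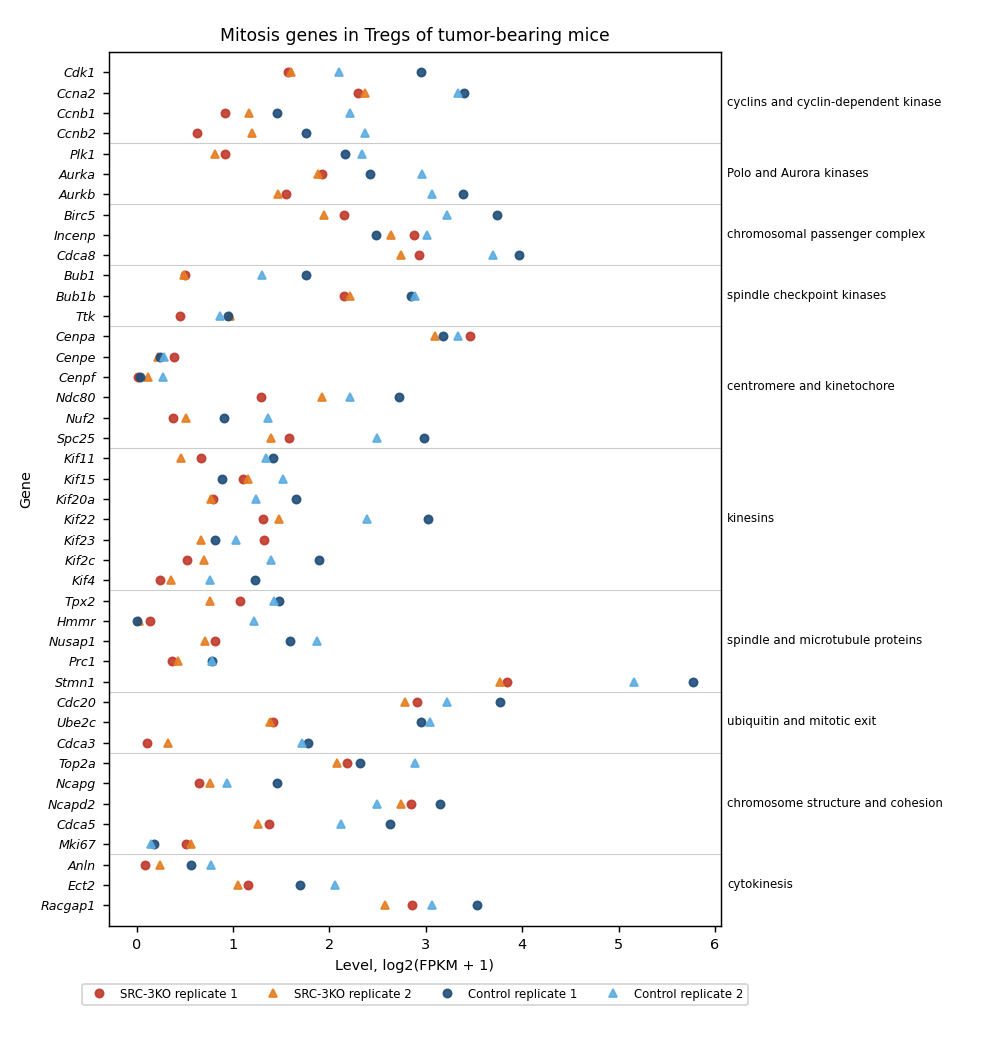
Level of each of the 42 mitosis genes in each library from tumor-bearing mice, as log2(FPKM + 1) on the x axis, with SRC-3KO replicates in red and orange and control replicates in dark and light blue. In 32 genes both SRC-3KO points lie to the left of both control points, and in Mki67 both lie to the right.

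Without a tumor most of the 42 were also lower in SRC-3KO, but the size rested on the WT control. All 42 members passed the expression filter, 38 had a log2 fold change below 0, and their median was -1.33 against -0.019 for all 14860 genes tested with edgeR. No member was called with edgeR's quasi-likelihood test, the smallest adjusted p being 0.910, and 0% of all genes were called lower. At an unadjusted p under 0.05, 7 members were lower (Ccna2, Aurkb, Incenp, Kif22, Cdc20, Ncapd2 and Mki67) and 0 higher, where 2.29% of all genes tested were lower. In 26 of the 42 both SRC-3KO libraries lay below both controls, where 21% of all genes did. In 2, Ndc80 and Nusap1, they lay above, where 18.3% of all genes did. DESeq2 called 4 of the members lower (Ccna2, Aurkb, Kif22 and Cdc20), among 0.464% of all genes.

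Summed over the 42 genes, the 2 SRC-3KO libraries without a tumor held 752 and 1035 CPM, control replicate 1 held 5168 CPM, and control replicate 2 held 1408 CPM. Of the 42 members, 29 were highest in control replicate 1 and 10 in control replicate 2. Control replicate 1 thus stood far above the other 3 libraries, while control replicate 2 stood above both SRC-3KO libraries by a smaller margin. Without control replicate 1 the median log2 fold change was -0.68 against 0.078 for all genes, and 31 of the 42 lay below 0. In that fit 14 members were lower at an unadjusted p under 0.05 and 2, Kif23 and Racgap1, higher, where 7.43% of all genes were lower and 11.9% higher. None was called (smallest edgeR adjusted p 0.107). The log2 fold change of 28 of the 42 members turned or moved by more than 1.5 times in that fit. Without control replicate 2, edgeR called 23 members lower and 1, Spc25, higher, but it then called 21.6% of all genes lower and 22.2% higher. In each such fit the lone control is assumed to vary like the SRC-3KO pair.

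**Figure D3:**
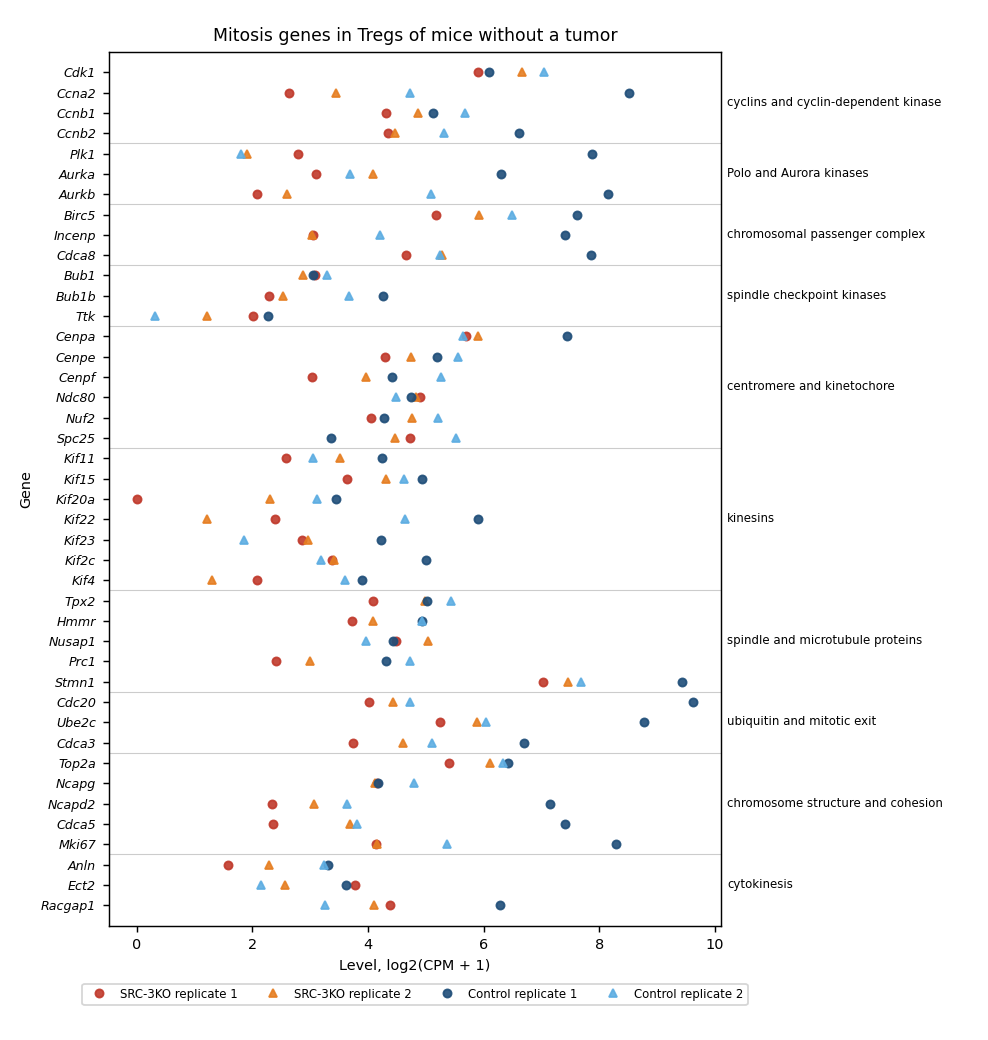
Level of each of the 42 mitosis genes in each library from mice without a tumor, as log2(CPM + 1) on the x axis, with SRC-3KO replicates in red and orange and control replicates in dark and light blue. Control replicate 1, in dark blue, is the highest point in 29 of the 42 genes, and often lies far from control replicate 2.

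Across both states, 19 members lay below both controls in SRC-3KO each time, which is 73.1% of the 26 without a tumor and 59.4% of the 32 with one. Of the members tested in both states, 15 did so, where 3.08% of all 11674 such genes did. Kif20a and Cdca3 are among the 15 but passed the filter with a tumor only through the controls. Members that pass it in this way lie below both tumor controls by construction. The order of the members was not much alike. Over the 32 members tested in both, Spearman's rho between the fold changes was 0.26, a description across genes. The counts by role below are parts of the counts over all 42 members. Of all genes above 0 in any tumor library, 16.9% lay below both controls, and of all genes tested without a tumor, 21% did.

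The mitotic cyclins and their kinase lay below both controls with a tumor in all 4 cases and without one in 3 of 4. Cyclin A2 (Ccna2, chromosome 3, 36564865 to 36572150, minus strand, mm10), which drives S phase and entry into mitosis, stood at 3.90 and 4.15 FPKM in SRC-3KO Tregs against 9.53 and 9.10 FPKM in control Tregs with a tumor. Its log2 fold change was -1.04 (SE 0.21, adjusted p = 0.156 with limma). Without a tumor it was at 5.25 and 9.88 CPM in SRC-3KO Tregs against 362 and 25.6 CPM in control Tregs, with a log2 fold change of -4.59 (SE 1.49). The groups did not overlap in either state, but the WT control was 14.2 times as high as the other control, and without it the log2 fold change was -1.67. Cyclin B2 (Ccnb2), a partner of Cdk1 at the Golgi and spindle, stood at 0.549 and 1.29 FPKM in SRC-3KO Tregs against 2.39 and 4.17 FPKM in control Tregs, and at 19.3 and 21.0 CPM against 96.7 and 38.8 CPM without a tumor. Its fold changes were -1.15 (SE 0.34) and -1.65 (SE 0.84), again with no overlap, and without the WT control the second was -0.87. Cyclin B1 (Ccnb1), the main partner of Cdk1 in mitosis, stood at 0.890 and 1.24 FPKM in SRC-3KO Tregs against 1.74 and 3.65 FPKM in control Tregs, with a log2 fold change of -0.79 (SE 0.33) that was -0.41 without control replicate 2. Without a tumor Ccnb1 stood at 18.8 and 28.1 CPM in SRC-3KO Tregs against 33.8 and 50.2 CPM in control Tregs, where the WT control was the lower of the pair. Cdk1 stood at 1.97 and 2.03 FPKM in SRC-3KO Tregs against 6.72 and 3.29 FPKM in control Tregs and was lower with no overlap. Without a tumor the Cdk1 libraries overlapped, at 58.7 and 100.2 CPM in SRC-3KO Tregs against 67.4 and 131 CPM in control Tregs. The exons of Ccna2 share 510 bases with Exosc9 on the other strand, and the sources used here do not give the strand setting of the counting, without which reads of such a pair cannot be told apart.

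Polo-like kinase 1 and both Aurora kinases lay below both controls with a tumor, while without one their values depended heavily on the WT control. Aurkb (chromosome 11, mm10), the kinase of the chromosomal passenger complex, stood at 1.92 and 1.76 FPKM in SRC-3KO Tregs against 9.45 and 7.36 FPKM in control Tregs with a tumor. Its log2 fold change of -1.72 (SE 0.24, adjusted p = 0.121 with limma) was the lowest of the 32 tested on the scale of log2(FPKM + 1). In mice without a tumor Aurkb stood at 3.24 and 5.05 CPM in SRC-3KO Tregs against 284 and 33.2 CPM in control Tregs. All controls lay above all SRC-3KO libraries in both states, and without the WT control the log2 fold change was -2.92 in place of -5.17 (SE 1.36). Plk1, which drives spindle assembly and mitotic exit, stood at 0.884 and 0.758 FPKM in SRC-3KO Tregs against 3.48 and 4.06 FPKM in control Tregs with a tumor. That was a log2 fold change of -1.39 (SE 0.24), with the SRC-3KO values under the filter of 1 FPKM. Without a tumor Plk1 stood at 5.94 and 2.77 CPM in SRC-3KO Tregs against 232 and 2.48 CPM in control Tregs. Only the WT control was high there. Without it the direction turned, at 0.87 in place of -4.72. Aurka, the centrosomal Aurora kinase, stood at 2.79 and 2.68 FPKM in SRC-3KO Tregs against 4.37 and 6.80 FPKM in control Tregs with a tumor. Without a tumor its 7.58 and 16.0 CPM in SRC-3KO overlapped the control values of 77.8 and 11.9 CPM.

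Of the other chromosomal passenger proteins, which carry Aurkb to centromeres and then to the midzone, Birc5 and Cdca8 lay below both controls with a tumor and Incenp did not. Birc5 (survivin), the targeting subunit, stood at 3.45 and 2.85 FPKM in SRC-3KO Tregs against 12.4 and 8.35 FPKM in control Tregs, or a log2 fold change of -1.44 (SE 0.27, adjusted p = 0.146 with limma). Cdca8 (borealin) stood at 6.60 and 5.68 FPKM in SRC-3KO Tregs against 14.6 and 11.9 FPKM in control Tregs, or a log2 fold change of -0.996 (SE 0.22). The scaffold Incenp overlapped, at 6.33 and 5.23 FPKM in SRC-3KO Tregs against 4.60 and 7.08 FPKM in control Tregs, with a log2 fold change of 0.0069 (SE 0.27). Within this 1 complex the values with a tumor therefore ranged from a level near that of the controls, in Incenp, to one well below both of them, in Birc5 and Aurkb. Without a tumor Incenp had no overlap, at 7.29 and 7.21 CPM in SRC-3KO Tregs against 169 and 17.4 CPM in control Tregs. Birc5 stood at 35.4 and 59.8 CPM in SRC-3KO Tregs against 195 and 88.4 CPM in control Tregs, and Cdca8 at 24.2 and 37.7 CPM against 230.3 and 36.9 CPM. In Cdca8 the control that is not WT lay below SRC-3KO replicate 2.

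The spindle checkpoint kinases hold anaphase until chromosomes are attached, and Bub1b and Bub1 lay below both controls with a tumor, where Bub1 passed the filter only through the controls. Bub1b (BubR1), which inhibits the anaphase-promoting complex, stood at 3.44 and 3.65 FPKM in SRC-3KO Tregs against 6.20 and 6.42 FPKM in control Tregs, with replicates that differed little. Its log2 fold change was -0.68 (SE 0.22) with a tumor and -1.67 (SE 0.89) without one, with no overlap in either state. Bub1, which recruits the checkpoint to kinetochores, stood at 0.413 and 0.405 FPKM in SRC-3KO Tregs against 2.37 and 1.47 FPKM in control Tregs with a tumor. Without a tumor its libraries overlapped, at 7.50 and 6.37 CPM in SRC-3KO Tregs against 7.29 and 8.82 CPM in control Tregs. Ttk (Mps1), at the top of the checkpoint, overlapped in both states and was below the filter with a tumor, at 0.364 and 0.962 FPKM in SRC-3KO Tregs against 0.928 and 0.819 FPKM in control Tregs.

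Among the centromere and kinetochore genes the values were mixed. Spc25 and Ndc80 belong to the Ndc80 complex that binds microtubule ends. Spc25 stood at 1.999 and 1.64 FPKM in SRC-3KO Tregs against 6.92 and 4.64 FPKM in control Tregs with a tumor, a log2 fold change of -1.25 (SE 0.27, adjusted p = 0.163 with limma). Without a tumor the controls of Spc25 lay on both sides, at 25.5 and 21.1 CPM in SRC-3KO Tregs against 9.27 and 44.7 CPM in control Tregs. Ndc80 stood at 1.44 and 2.79 FPKM in SRC-3KO Tregs against 5.59 and 3.65 FPKM in control Tregs with a tumor, but at 28.8 and 27.4 CPM against 25.7 and 21.4 CPM without one. It is thus lower in SRC-3KO in one state and higher in the other, with no overlap in either; its fold changes were -0.86 (SE 0.33) and 0.37 (SE 0.72). The first was -0.55 without SRC-3KO replicate 1 and the second 0.16 without control replicate 2. Cenpa, the histone H3 variant that marks centromeres, overlapped in both states, at 10.02 and 7.53 FPKM in SRC-3KO Tregs against 8.06 and 9.06 FPKM in control Tregs with a tumor. Nuf2, the partner of Ndc80, was below the filter with a tumor, at 0.300 and 0.432 FPKM in SRC-3KO Tregs against 0.876 and 1.57 FPKM in control Tregs. Cenpe, a kinetochore motor, and Cenpf were at most 0.309 FPKM in every tumor library. Without a tumor both lay below the controls, Cenpf at 7.18 and 14.7 CPM in SRC-3KO Tregs against 20.4 and 37.4 CPM in control Tregs and Cenpe at 18.6 and 25.7 CPM against 35.5 and 45.9 CPM.

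The mitotic kinesins, motors that move chromosomes and microtubules, lay below both controls with a tumor in 5 of 7 genes. Of these only Kif22 was tested without having passed the filter through the controls alone: Kif2c, Kif11 and Kif20a passed it through the controls, and Kif4 was below it. Kif22 (Kid), which pushes chromosome arms away from the poles, stood at 1.49 and 1.78 FPKM in SRC-3KO Tregs against 7.11 and 4.23 FPKM in control Tregs, or a log2 fold change of -1.31 (SE 0.30, adjusted p = 0.169 with limma). Without a tumor Kif22 stood at 4.26 and 1.32 CPM in SRC-3KO Tregs against 58.8 and 24.01 CPM in control Tregs. Its log2 fold change was -3.83 (SE 1.05) and -3.05 without the WT control, so it kept most of its size. Kif2c (MCAK), which takes microtubule ends apart, stood at 0.435 and 0.622 FPKM in SRC-3KO Tregs against 2.72 and 1.62 FPKM in control Tregs with a tumor. Kif11 (Eg5), which separates the spindle poles, stood at 0.587 and 0.373 FPKM in SRC-3KO Tregs against 1.67 and 1.54 FPKM in control Tregs, and both overlapped without a tumor. Kif20a, which carries the passenger complex to the midzone, stood at 0.739 and 0.713 FPKM in SRC-3KO Tregs against 2.14 and 1.36 FPKM in control Tregs with a tumor. In mice without a tumor it had 0 counts in SRC-3KO replicate 1, which allows up to 0.109 CPM, and 3.96 CPM in replicate 2, against 9.86 and 7.66 CPM in control Tregs. Its exons share 1271 bases with Cdc23 on the other strand. Kif4, a chromosome-bound kinesin, was with a tumor at 0.180 and 0.285 FPKM in SRC-3KO Tregs against 1.34 and 0.701 FPKM in control Tregs, and stood at 3.24 and 1.48 CPM against 13.9 and 11.1 CPM without one. Kif15, a motor that helps Kif11, and Kif23, a motor of the midzone, overlapped with a tumor, with log2 fold changes of -0.076 (SE 0.30) and 0.076 (SE 0.31).

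Of the spindle and microtubule proteins, Stmn1 had the highest level of any member in the tumor libraries. Stmn1 (stathmin, chromosome 4, mm10), which takes microtubules apart and is also made outside mitosis, stood at 13.3 and 12.6 FPKM in SRC-3KO Tregs against 53.8 and 34.7 FPKM in control Tregs. Its log2 fold change was -1.66 (SE 0.26, adjusted p = 0.121 with limma). In mice without a tumor Stmn1 stood at 129.97 and 174 CPM in SRC-3KO Tregs against 686 and 204 CPM in control Tregs, so that control replicate 2 was close to SRC-3KO replicate 2. Nusap1, which bundles spindle microtubules, stood at 0.760 and 0.640 FPKM in SRC-3KO Tregs against 2.01 and 2.67 FPKM in control Tregs with a tumor, but at 21.3 and 31.9 CPM against 20.7 and 14.6 CPM without one. Its fold changes were -0.97 (SE 0.25) and 0.71 (SE 0.78), with no overlap in either state, and the second was 0.33 without SRC-3KO replicate 2. Prc1, which crosslinks the microtubules of the midzone, was below the filter with a tumor, at 0.292 and 0.351 FPKM in SRC-3KO Tregs against 0.723 and 0.719 FPKM in control Tregs. Without a tumor Prc1 stood at 4.33 and 7.02 CPM in SRC-3KO Tregs against 19.0 and 25.5 CPM in control Tregs, and its controls were close to each other. Tpx2, the activator of Aurka on the spindle, lay below both controls in both states, with log2 fold changes of -0.53 (SE 0.25) and -0.51 (SE 0.78), the second being -0.0025 without SRC-3KO replicate 1. Hmmr, a spindle protein that also binds hyaluronan, was listed at 0 in one tumor control and at 1.33 FPKM in the other. Without a tumor it was at 12.3 and 16.0 CPM in SRC-3KO Tregs against 29.6 and 29.6 CPM in control Tregs, again with controls close to each other.

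Each of the genes of ubiquitin transfer and mitotic exit lay below both controls in both states. Ube2c (chromosome 2, mm10), the enzyme that starts ubiquitin chains for the anaphase-promoting complex, stood at 1.66 and 1.61 FPKM in SRC-3KO Tregs against 6.74 and 7.24 FPKM in control Tregs with a tumor. Its log2 fold change was -1.60 (SE 0.22, adjusted p = 0.121 with limma), with replicates close together in both groups. Without a tumor it was at 37.1 and 58.2 CPM in SRC-3KO Tregs against 436 and 64.8 CPM in control Tregs, or a log2 fold change of -2.30 (SE 1.16) that was -0.36 without the WT control. Cdca3, linked to the destruction of the kinase Wee1, stood at 0.0759 and 0.251 FPKM in SRC-3KO Tregs against 2.44 and 2.30 FPKM in control Tregs, or a log2 fold change of -1.54 (SE 0.24). Its SRC-3KO values were under the filter, where the 1 added to FPKM shrinks a fold change most. Cdc20, the activator of the anaphase-promoting complex, stood at 6.54 and 5.91 FPKM in SRC-3KO Tregs against 12.6 and 8.35 FPKM in control Tregs with a tumor. Without a tumor it was at 15.2 and 20.7 CPM in SRC-3KO Tregs against 789 and 25.4 CPM in control Tregs. The WT control was 31.1 times as high as the other, and without it the log2 fold change of -4.43 became -0.42. Exons of Ube2c share 592 bases with Tnnc2, and those of Cdc20 share 53 with Elovl1, on the other strand.

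The genes of chromosome structure and cohesion lay below both controls without a tumor in all 5 cases, and with a tumor in 3. Cdca5 (sororin), which protects cohesin until anaphase, stood at 1.59 and 1.39 FPKM in SRC-3KO Tregs against 5.20 and 3.33 FPKM in control Tregs with a tumor, a log2 fold change of -1.06 (SE 0.28). Without a tumor Cdca5 stood at 4.12 and 11.9 CPM in SRC-3KO Tregs against 168 and 13.0 CPM in control Tregs, so that only the WT control was far away. Top2a, the topoisomerase that untangles sister chromatids, stood at 3.55 and 3.24 FPKM in SRC-3KO Tregs against 3.97 and 6.39 FPKM in control Tregs with a tumor, and at 41.3 and 68.4 CPM against 84.5 and 80.1 CPM without one. The condensin subunit Ncapd2 overlapped with a tumor, at 6.19 and 5.68 FPKM in SRC-3KO Tregs against 7.84 and 4.64 FPKM in control Tregs. Without a tumor Ncapd2 stood at 4.04 and 7.43 CPM in SRC-3KO Tregs against 141 and 11.5 CPM in control Tregs. Its partner Ncapg did not overlap with a tumor but was below the filter, at 0.567 and 0.691 FPKM in SRC-3KO Tregs against 1.75 and 0.919 FPKM in control Tregs. Mki67 (Ki-67), which coats mitotic chromosomes and is the usual marker of dividing cells, lay the other way with a tumor. It stood at 0.428 and 0.482 FPKM in SRC-3KO Tregs against 0.132 and 0.112 FPKM in control Tregs, below the filter and therefore not tested. Without a tumor Mki67 stood at 16.7 and 16.8 CPM in SRC-3KO Tregs against 311 and 40.2 CPM in control Tregs, or a log2 fold change of -3.32 (SE 1.2) that was -1.19 without the WT control. Mki67, Cenpf and Cenpe have the longest transcripts of the 42, and all were under 0.5 FPKM in every tumor library.

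Of the cytokinesis genes, which split the cell after anaphase, none overlapped with a tumor. Ect2, which activates RhoA at the cleavage site, stood at 1.22 and 1.08 FPKM in SRC-3KO Tregs against 2.24 and 3.18 FPKM in control Tregs. Racgap1, which with Kif23 forms the centralspindlin that recruits Ect2, stood at 6.27 and 4.97 FPKM in SRC-3KO Tregs against 10.6 and 7.37 FPKM in control Tregs. Anln (anillin), the scaffold of the contractile ring, was below the filter, at 0.0600 and 0.183 FPKM in SRC-3KO Tregs against 0.483 and 0.714 FPKM in control Tregs. Without a tumor only Anln did not overlap, at 2.003 and 3.86 CPM in SRC-3KO Tregs against 8.87 and 8.49 CPM in control Tregs. Racgap1 stood there at 19.9 and 16.1 CPM in SRC-3KO Tregs against 76.7 and 8.61 CPM in control Tregs, and without the WT control its log2 fold change turned to 1.14.

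**Figure D4:**
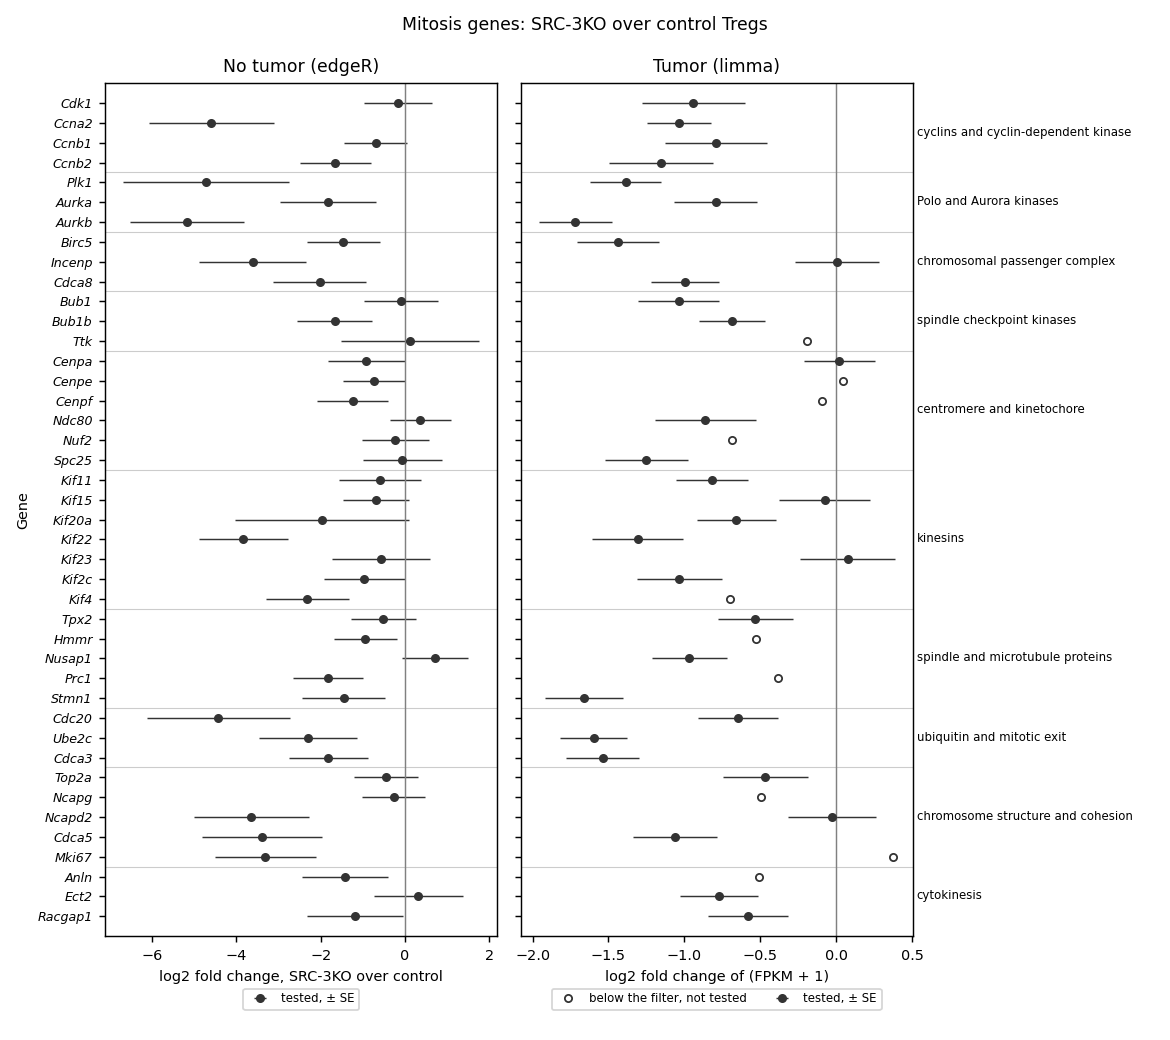
log2 fold change of each mitosis gene, SRC-3KO over control, with bars of its standard error, without a tumor (left, edgeR on counts) and with a tumor (right, limma on log2(FPKM + 1)), 2 libraries per group. Open circles are the 10 genes below the FPKM filter, which were not tested; the scales of the panels differ, and 38 of 42 points on the left and 29 of the 32 filled points on the right lie below 0.

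Expressed per transcript length, the levels of the members in the tumor libraries covered a wide range. Stmn1 averaged 12.97 ± 0.529 FPKM in SRC-3KO Tregs, against 44.3 ± 13.5 FPKM in control Tregs (SD, n = 2 each). Next in control came Cdca8 at 13.3 ± 1.91, Cdc20 at 10.5 ± 3.03 and Birc5 at 10.4 ± 2.86 FPKM, which did not differ beyond their spread. Next in SRC-3KO came Cenpa at 8.77 ± 1.76, Cdc20 at 6.22 ± 0.443 and Cdca8 at 6.14 ± 0.652 FPKM. At the low end Cenpf averaged 0.0477 ± 0.0539 FPKM in SRC-3KO Tregs, against 0.119 ± 0.132 FPKM in control Tregs (SD, n = 2 each).

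The fold changes followed the make-up of the transcripts, differently in each state. Without a tumor, members of higher GC content were further below 0, with Spearman's rho of -0.78 over the 42 members and -0.42 over all genes tested. The median log2 fold change was -2.85 in the 14 members with the highest GC content (49.02% to 55.98%), -1.30 in the middle 14 and -0.25 in the 14 with the lowest (34.8% to 43.3%). Measured against control replicate 1 alone rho was -0.81, and against control replicate 2 alone -0.15. The ratio of the WT control to the other control itself had a rho of 0.67 with GC content. With a tumor the fold changes followed length, with rho of 0.66 over the unfiltered 42 members, 0.63 over the 32 tested and 0.38 over all genes tested. The median difference was -1.11 in the 14 shortest (1060 to 2965 bases), -0.69 in the middle 14 and -0.503 in the 14 longest (3975 to 11130 bases). Mki67, Cenpf and Cenpe, the longest members, lay below the filter with a tumor, where the 1 added to FPKM draws differences toward 0. The part of this in the trend with length was not tested. These are descriptions across genes that share the same libraries. With the trends of length and GC content removed from each library, the medians were -1.56 without a tumor and -0.92 with one. Unadjusted p-values under 0.05 with a lower level were reached by 15 of 42 members without a tumor (edgeR), against 3.2% of all genes. With a tumor 24 of 32 reached them (limma), against 6.13%. The 32 include the 7 members that passed the filter only through the controls. The trends removed were those over all genes tested, and without a tumor the members followed GC content more closely than all genes did. The part of length and GC content in the fold changes was not tested.

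**Figure D5:**
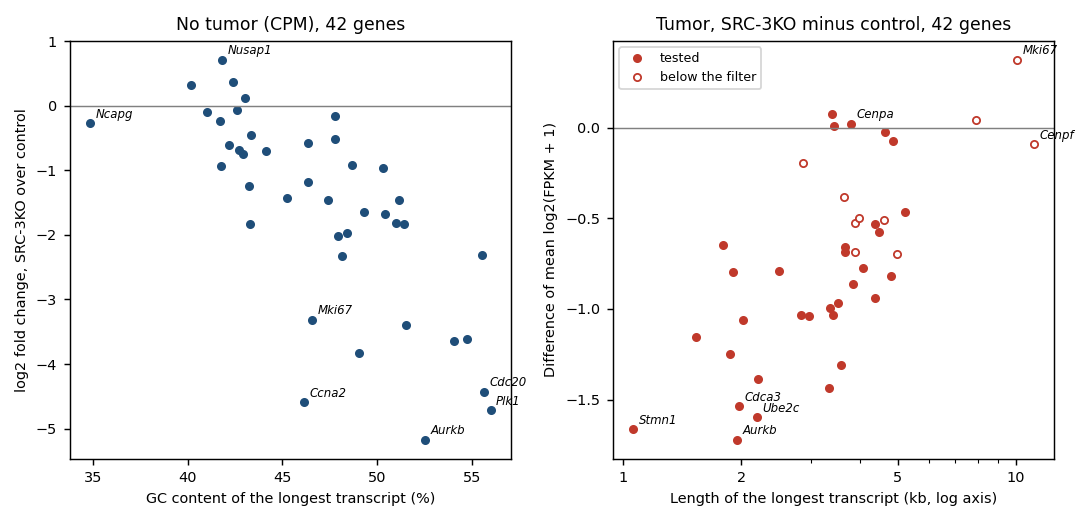
Left, log2 fold change without a tumor (SRC-3KO over control) against the GC content of the longest transcript, for the 42 mitosis genes. Right, difference of mean log2(FPKM + 1) with a tumor (SRC-3KO minus control) against the length of the longest transcript in kb on a log axis, filled for the 32 tested genes and open for the 10 below the filter; points fall to the right on the left panel and rise to the right on the right panel.

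Members with and without a CHR match both had medians below 0. The 30 members with TTTGAA in their window had a median of -1.33 without a tumor and -0.69 with one (difference of mean log2(FPKM + 1), no filter). The 6 members without it (Ccnb1, Birc5, Bub1, Cenpe, Nuf2 and Nusap1) had medians of -0.46 and -0.88. Birc5, with neither element in the RefSeq window, was among the lower members with a tumor, and Nusap1 was lower with a tumor and higher without one.

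Further genes of mitosis had smaller median differences, a contrast that was not tested. Of 87 further genes of the mitotic machinery, chosen by function, 84 were tested without a tumor, with 0 called, 4 lower and 0 higher at an unadjusted p under 0.05, and a median of -0.21. Of all genes tested there, 2.29% were lower and 0.882% higher. With a tumor 68 were tested, with 0 called by limma, 12 lower and 3 higher, and a median of -0.16, where 6.07% of all genes were lower and 10.4% higher. The filter favours a lower level here too, since 6 of the 68 passed it only through the controls. Cenpi, Cenpk, Kif18b and Ckap2 are among these 6 and also among the 12 that were lower. Those that were lower include Cenpm, a centromere protein, at 3.78 and 3.44 FPKM in SRC-3KO Tregs against 11.9 and 8.36 FPKM in control. Tacc3, a spindle protein, stood at 5.44 and 6.03 FPKM in SRC-3KO Tregs against 14.9 and 12.3 FPKM in control. Spc24, the partner of Spc25, stood at 3.37 and 3.29 FPKM in SRC-3KO Tregs against 6.72 and 6.45 FPKM in control. Some cohesin genes lay the other way: the ring subunit Smc1a stood at 27.2 and 29.8 FPKM in SRC-3KO Tregs against 16.0 and 15.0 FPKM in control, and the cohesin regulator Pds5a at 7.99 and 10.3 against 4.15 and 4.503 FPKM. Sgo1 (shugoshin), which protects cohesin at centromeres, was lower, at 1.12 and 0.599 FPKM in SRC-3KO Tregs against 3.28 and 1.95 FPKM in control. The 15 subunits of the anaphase-promoting complex, which are present in resting cells too, had medians of 0.048 without a tumor and -0.14 with one.

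Of 20 regulators of mitotic genes (E2F, DREAM and MuvB members and activators), all were tested without a tumor, with 0 called, 5 lower and 0 higher at an unadjusted p under 0.05 (all genes 2.29% and 0.882%), and a median of -0.65. With a tumor 16 were tested, with 0 called, 3 lower and 2 higher (all genes 6.07% and 10.4%), and a median of -0.13. E2f1, an activator of genes of S phase entry, stood at 7.15 and 6.55 FPKM in SRC-3KO Tregs against 14.2 and 12.9 FPKM in control with a tumor. Without one E2f1 stood at 3.97 and 3.67 CPM in SRC-3KO Tregs against 72.4 and 10.7 CPM in control, so that it lay below both controls in both states. The DREAM subunits Rbl2 (p130), which represses cell cycle genes in resting cells, and Lin52 were higher with a tumor. Rbl2 stood at 13.3 and 14.3 FPKM in SRC-3KO Tregs against 7.49 and 7.65 FPKM in control, and Lin52 at 2.46 and 4.04 against 0.742 and 0.940 FPKM. Without a tumor both overlapped.

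Markers of other cells also differed between the groups. With a tumor, summed plasma cell markers stood at 261 and 243 FPKM in SRC-3KO Tregs against 1691 and 2351 FPKM in control. The immunoglobulin genes Igkc and Ighm made up most of the plasma cell sum in every library. B cell markers stood at 12.8 and 10.3 FPKM in SRC-3KO Tregs against 36.6 and 28.7 FPKM in control. Of the 7 plasma cell genes, Tnfrsf17 was at 0 in all 4 tumor libraries; of the 8 B cell genes, Cd79a stood at 0.395 and 0.308 FPKM in SRC-3KO Tregs against 10.3 and 8.74 FPKM in control. Markers of CD8 T and NK cells summed to 58.4 and 37.8 FPKM in SRC-3KO Tregs against 159 and 111 FPKM in control, mostly through Nkg7. Cd8b1 lay the other way, at 7.69 and 7.74 FPKM in SRC-3KO Tregs against 4.67 and 6.16 FPKM in control. Erythroblasts are dividing cells; their markers summed to at most 2.51 FPKM outside control replicate 2, where they reached 55.7 FPKM. The mitosis genes summed to 229 FPKM in tumor control replicate 1, which held few myeloid but many plasma cell markers. They summed to 192 FPKM in control replicate 2, which held many of both. Without a tumor, plasma cell markers stood at 925 and 445 CPM in SRC-3KO Tregs against 106 and 1617 CPM in control, and CD8 T and NK cell markers at 557 and 374 against 1331 and 128 CPM. The part of these cells in the levels of the mitosis genes was not tested.

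Leaving out a tumor library changed which members were called. Without control replicate 2, the library with the myeloid markers, limma called 11 members lower (Cdk1, Ccna2, Aurkb, Birc5, Cdca8, Spc25, Kif22, Stmn1, Cdc20, Ube2c and Cdca5), where 12% of all genes were called lower. Without control replicate 1 it called 3 (Aurkb, Stmn1 and Ube2c), where 2.38% of all genes were. With SRC-3KO replicate 1 or replicate 2 left out it called 0, with 11 of 31 and 12 of 32 members lower at an unadjusted p under 0.05, where 2.69% and 2.66% of all genes were. The member median lay between -0.92 and -0.80 in these fits.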

How the data were processed

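Per the submitters' processing notes the authors used FastQC, Trim Galore, STAR, featureCounts and edgeR on mm10; the sources used here give no versions. The counts table was deposited by the authors as raw featureCounts read counts of 4 libraries without a tumor. The FPKM table was deposited by the authors with StringTie FPKM of 4 tumor libraries, per the file headers. The sources used here do not name a strand setting or an annotation release. Coordinates, length and GC content came from GENCODE vM21 (GRCm38, the build of mm10).

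Counts were tested with edgeR 4.0.16 (filterByExpr, TMM, quasi-likelihood), and FPKM with limma 3.58.1 (trend) on log2(FPKM + 1), after a filter of 1 FPKM in 2 libraries, in R 4.3.3. Fold changes are SRC-3KO over control, and p-values were adjusted by Benjamini-Hochberg over all genes tested, at 0.05. The fits were tested on simulated data. The members, the other gene lists and the tests were chosen with earlier results of these data known. All members are named; other lists name up to 4 genes per role, those of smallest p. Alternatives were other scalings and tools (DESeq2 1.42.0, limma-voom), other filters and pseudocounts, a replicate block, removal of trends with length and GC content, and each library left out. The replicate numbers of the tumor libraries share only a number, and those without a tumor come from accession order.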

Additional observations from a re-analysis of the deposited data

Results flagged for a closer look

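For 3 members both SRC-3KO libraries lay to one side of both controls without a tumor and to the other side with one; the difference between the states was not tested. Ndc80, a kinetochore protein, had a log2 fold change of 0.37 without a tumor and a difference of mean log2(FPKM + 1) of -0.86 with one. Nusap1, a spindle protein, had 0.71 without a tumor and -0.97 with one. Mki67, the usual marker of dividing cells, had -3.32 without a tumor and 0.37 with one, on values under the filter of 1 FPKM. With the trends of length and GC content removed, the values of Ndc80 and Nusap1 without a tumor were -0.26 and -0.075.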

How the results depend on the processing

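In mice without a tumor, the median over the 42 members stayed below 0 under every alternative run, from -1.75 without SRC-3KO replicate 2 to -0.68 without control replicate 1. The count of members called lower was 0 in the planned fit, 4 with DESeq2, 3 with no filter, and ranged from 0 to 23 when single libraries were left out. The count at an unadjusted p under 0.05 was 7 in the planned fit, 14 with DESeq2, 4 with limma-voom, 11 with no filter, 15 with the trends of length and GC content removed, and 0 to 24 when single libraries were left out. The shares of all genes were 2.29%, 7.26%, 1.47%, 4.06% and 3.2%, and 0.464% to 26% with single libraries left out. The median of all genes shifted to 0.24 with limma-voom and to -0.76 with no filter; the member medians were -1.25 and -1.42. In tumor-bearing mice the member median lay between -1.23, with a pseudocount of 0.01, and -0.74, with no filter. The count called was 0, and 0 to 11 when single libraries were left out. The count at an unadjusted p under 0.05 was 22 of 32 tested, 19 of 42 with no filter, 17 of 38 scaled to a common sum, 8 of 12 with a filter of 5 FPKM, and 11 to 15 of 24 to 32 when single libraries were left out. The shares of all genes were 6.07%, 3.59%, 2.93% and 6.83%, and 2.66% to 22.6% with single libraries left out. A filter on the mean of all 4 libraries, chosen after seeing the data, left 31 members, 19 of them lower at an unadjusted p under 0.05, with a median of -0.94. Scaling to a common sum moved the median of all genes to 0.21 and that of the members to -0.82. With the replicate block the median was -0.90, with 0 called and 21 lower at an unadjusted p under 0.05; the numbers were not treated as pairs, since same-numbered libraries deviated together with a correlation of 0.0357 across genes. No paired analysis was possible without a tumor because the labels give no replicate numbers there.

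Some members changed sign, without the cause having been tested. Without a tumor, Ttk became -0.042 with median-of-ratios factors, -0.042 with DESeq2 and -0.84 with trends removed, which also gave -0.26 for Ndc80, -0.075 for Nusap1 and -0.56 for Ect2. limma-voom gave 0.30 for Spc25 and 0.055 for Kif23. With a tumor, median-of-ratios scaling gave -0.016 for Incenp and -0.00064 for Cenpa, trend removal -0.15 and -0.054, and the common sum 0.084 for Kif15 and 0.20 for Ncapd2. With single libraries left out, the ranges without a tumor were -0.66 to 0.28 for Cdk1, -5.72 to 0.87 for Plk1, -2.68 to 0.070 for Aurka, -0.80 to 3.17 for Ttk, -1.61 to 0.23 for Cenpa, -0.71 to 0.23 for Nuf2, -0.87 to 1.36 for Spc25, -1.29 to 0.16 for Kif11, -1.42 to 1.39 for Kif23, -1.68 to 0.30 for Kif2c, -0.35 to 1.42 for Ect2 and -2.06 to 1.14 for Racgap1. With a tumor they were -0.26 to 0.27 for Incenp, -0.16 to 0.21 for Cenpa, -0.40 to 0.24 for Kif15, -0.032 to 0.40 for Kif23 and -0.35 to 0.30 for Ncapd2. With 2 libraries per group and a common dispersion of 0.79 without a tumor, a missed threshold does not show that levels were alike; 14 members share exon bases with another gene, and reads of both strands may be pooled.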
